A study of Homo sapiens with 12 samples.

Results

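The polymerase III small RNAs followed here are 9 short non-coding RNAs that RNA polymerase III makes: RN7SK, RNU6-1, BCYRN1, RNY1, RNY3, RNY4, RNY5, RMRP and RPPH1. They were taken by gene symbol by a rule that uses no measured value, though the choice was made with earlier results of these data known. All 9 were found among the 34602 gene rows of the authors' deposited table of mRNA stability. The cells were MDA-MB-231, an established human line from a triple-negative breast tumour. A transfer RNA, tRNA-Glu(UUC) or tRNA-Arg(CCG), was stably over-expressed in them, and a mock line served as control. All groups, the mock line included, received α-amanitin at 10 µg/mL for 9 or 0 h, which gave 12 arrays in 6 groups of 2: tRNA-Glu, tRNA-Arg and mock cells, each at 9 and at 0 h. The labels do not say whether a line was 1 clone or a pool, nor what drove the transgene.

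RNA polymerase III makes transfer RNAs, the smallest ribosomal RNA and a set of short structural RNAs, most of which carry no long poly(A) tail and work inside a protein particle. α-Amanitin binds RNA polymerase II tightly and polymerase III much more weakly, so in mammalian cells it is used to stop mRNA synthesis and follow what is left. For an mRNA, the amount remaining after the drug relative to before reflects decay. For these 9 RNAs synthesis is not the target of the block, so a stability score need not reflect decay at all. Whether the dose used here also lowered synthesis by polymerase III was not tested.

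Each score is a single signed value per gene and line, headed as stability in a tRNA line against control. How it was calculated, and on which scale, is not stated, and a positive score is read from the header as more RNA kept in the tRNA line than in control cells. The authors' deposited table holds no replicate values, no levels and no p-values, so the members' own error is unknown and no score was tested. Both columns are set against the same control cells and therefore are not independent of each other. Over all rows of the authors' deposited table, tRNA-Glu scores had an SD of 0.135 and a central 95% of -0.294 to 0.283, while the tRNA-Arg scores had an SD of 0.0846 and a central 95% of -0.171 to 0.172. Scores of the same size therefore lie farther out in the tRNA-Arg column.

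The arrays show how much of a like contrast, calculated per probe, is noise between replicates, though no probe could be tied to a gene here. Over all 47231 probes, the amanitin response (9 h minus 0 h) of the tRNA-Glu line less that of the mock line had an SD of 0.272 on the log2 scale of the authors' processed intensities, and the spread between the 2 arrays of each group accounted for 63.5% of that variance. For tRNA-Arg against mock the SD was 0.213 and replicate spread accounted for 89.3%. Among the brightest 25% of probes the shares were 42.2% for tRNA-Glu and 74.1% for tRNA-Arg. The probe SDs were larger than the SDs of the deposited scores, 0.135 for tRNA-Glu and 0.0846 for tRNA-Arg. With the calculation of the scores not stated, these shares need not hold for the scores. The non-normalized mean intensity per array lay between 497 and 525 at 9 h, against 533 and 606 at 0 h, with no overlap between the times (6 arrays each). Whether this difference in overall signal, or labelling of RNAs without a poly(A) tail, bears on the members' scores was not tested.

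Most of the small RNAs had scores above 0, more so for tRNA-Glu than for tRNA-Arg. Of the 9 members, 8 were above 0 for tRNA-Glu and 6 for tRNA-Arg according to the authors' deposited table, where 52.8% and 51.0% of all rows were above 0. Their median score was 0.269 for tRNA-Glu, against 0.00489 over all rows, and 0.113 for tRNA-Arg, against 0.00166 over all rows as given by the authors' deposited table. A score of 0.25, chosen with earlier results of these data known, was taken as a mark of size. For tRNA-Glu 5 of the 9 members reached it (RN7SK, RNU6-1, BCYRN1, RNY3 and RNY4), beside 3.27% of all rows according to the authors' deposited table. RNY1, at 0.240, and RPPH1, at 0.237, lay just below 0.25 for tRNA-Glu. For tRNA-Arg only RN7SK and RNU6-1 of the 9 reached it, beside 0.72% of all rows as given by the authors' deposited table. No member was at or below -0.25 in either line, beside 3.27% of all rows for tRNA-Glu and 0.879% for tRNA-Arg, according to the authors' deposited table. These rows include many genes that may not be expressed in this line, and the authors' deposited table gives no level by which to leave them out.

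**Figure D1:**
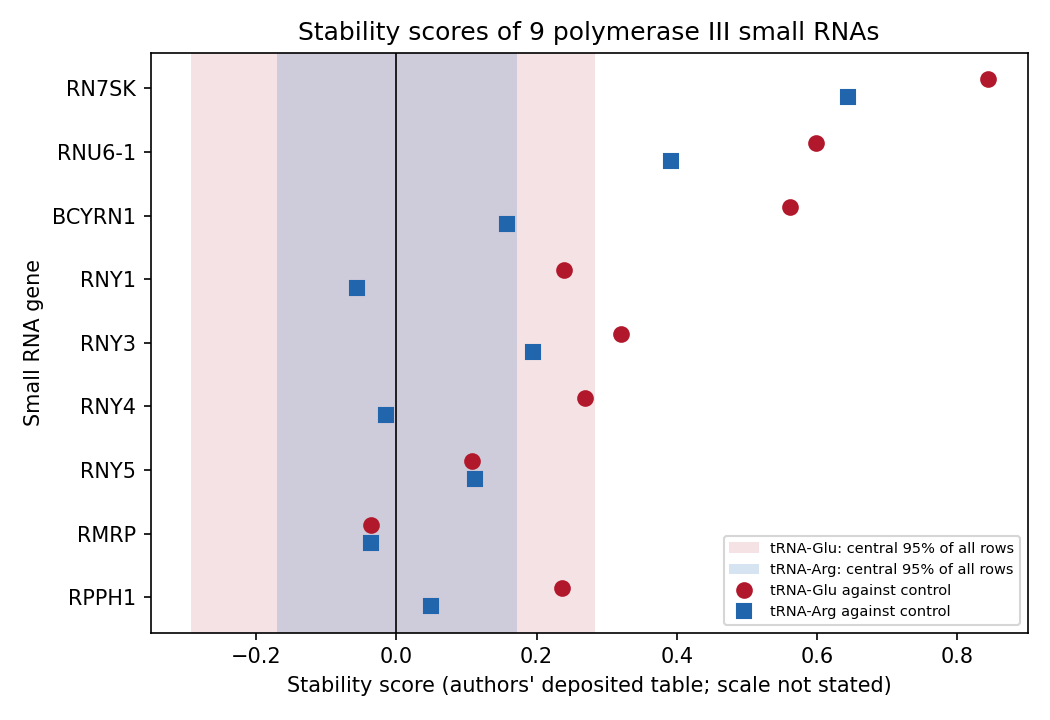
Stability score (x axis, scale not stated) of each of the 9 small RNAs (y axis) for tRNA-Glu (red circles) and tRNA-Arg (blue squares) against control, with shaded bands for the central 95% of all rows in each column. RN7SK, RNU6-1, BCYRN1 and RNY3 lie above the tRNA-Glu band, RN7SK, RNU6-1 and RNY3 lie above the tRNA-Arg band, and RMRP lies just below 0 in both.

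RN7SK, the RNA scaffold on which HEXIM proteins keep P-TEFb, a kinase needed for elongation, inactive, had the highest scores of the 9. Its score was 0.844 for tRNA-Glu, the 21st highest of 34602 rows, and 0.644 for tRNA-Arg, the 6th highest as given by the authors' deposited table. Divided by the SD of its column, the score was 6.27 for tRNA-Glu and 7.61 for tRNA-Arg, so on this scale the tRNA-Arg value was the larger. Of the 7 genes listed for 7SK particle and P-TEFb proteins, none reached 0.25 for tRNA-Glu and 1 did for tRNA-Arg, beside 3.27% and 0.72% of all rows for the same lines, as given by the authors' deposited table. That gene was MEPCE, whose enzyme caps 7SK, with 0.224 for tRNA-Glu (percentile 95.9) and 0.339 for tRNA-Arg (percentile 99.8) according to the authors' deposited table. LARP7, which protects the 3′ end of 7SK, had -0.0805 for tRNA-Glu and -0.0471 for tRNA-Arg, and the kinase CDK9 of P-TEFb had -0.175 and -0.0304 for the same lines as given by the authors' deposited table.

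RNU6-1 encodes U6, the small nuclear RNA at the catalytic core of the spliceosome and the only major spliceosomal RNA that polymerase III makes. It followed RN7SK in both columns, with 0.599 for tRNA-Glu (88th highest) and 0.392 for tRNA-Arg (48th highest) according to the authors' deposited table. U6 has many near-identical genes and pseudogenes, so its row may not separate them. Whether the rows of the other members separate each RNA from like sequences was not checked. RNU6-15, which RefSeq lists as a pseudogene and which was picked after its values were seen, had 0.408 for tRNA-Glu and 0.152 for tRNA-Arg as given by the authors' deposited table. RNU6ATAC, the U6 counterpart of the minor spliceosome, had 0.273 for tRNA-Glu and 0.0934 for tRNA-Arg according to the authors' deposited table. The mRNAs of U6 particle proteins spread to both sides. Of 13, 2 were at or above 0.25 and 3 at or below -0.25 for tRNA-Glu, beside 3.27% of all rows past either mark, as given by the authors' deposited table. For tRNA-Arg none passed either mark, beside 0.72% of all rows above and 0.879% below, as given by the authors' deposited table. LSM4, a subunit of the ring that binds the 3′ end of U6, lay at -0.848 and LSM5, another subunit of that ring, at 0.375 for tRNA-Glu according to the authors' deposited table.

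BCYRN1, also called BC200, is a primate RNA derived from an Alu element that represses translation and is known from neurons and from many tumours. Its score was 0.561 for tRNA-Glu (116th highest) and 0.158 for tRNA-Arg (1118th highest) as given by the authors' deposited table. On the scale as deposited this was the largest gap between the lines among the 9, with a tRNA-Glu minus tRNA-Arg difference of 0.404, at percentile 99.6 of all rows according to the authors' deposited table. RN7SL1, the signal recognition particle RNA that shares the Alu fold, had 0.30 for tRNA-Glu and 0.121 for tRNA-Arg as given by the authors' deposited table. SRP9 and SRP14, whose proteins bind the Alu domain of both RNAs, had 0.0292 and 0.10 for tRNA-Glu, and 0.0621 and -0.0294 for tRNA-Arg according to the authors' deposited table. Of the 7 genes listed for proteins that bind these RNAs, 2 reached 0.25 for tRNA-Glu and none did for tRNA-Arg, beside 3.27% and 0.72% of all rows for the same lines, as given by the authors' deposited table.

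The Y RNAs, which bind the Ro protein and take part in RNA quality control and in the start of DNA replication, lie in 1 gene cluster, in the order RNY5, RNY4, RNY3 and RNY1 on the GRCh38.p14 assembly. Their scores differed among themselves. For tRNA-Glu all 4 were above 0, with RNY3 at 0.321, RNY4 at 0.269, RNY1 at 0.240 and RNY5 at 0.108 as given by the authors' deposited table. For tRNA-Arg only RNY3, at 0.195, and RNY5, at 0.113, were above 0, while RNY4 had -0.0144 and RNY1 -0.0557 according to the authors' deposited table. RNY3 was thus at a like percentile in both lines, 98.2, whereas RNY1 was at percentile 96.4 for tRNA-Glu and 19.1 for tRNA-Arg as given by the authors' deposited table. The tRNA-Glu minus tRNA-Arg difference was 0.295 for RNY1 and 0.283 for RNY4, at percentiles 98.7 and 98.5 of all rows, but -0.00506 for RNY5, at percentile 45.5 according to the authors' deposited table. Both large differences were outside the central 95% of such differences over all rows, which ran from -0.237 to 0.235. TROVE2, the gene of the Ro protein, had 0.0939 for tRNA-Glu and -0.0809 for tRNA-Arg, and SSB, the gene of the La protein that binds the uridine tail of new polymerase III transcripts, had 0.139 and 0.0820 for the same lines as given by the authors' deposited table. Of the 10 genes listed for Ro, La and RNA end factors, 1 was at or above 0.25 and 2 were at or below -0.25 for tRNA-Glu, beside 3.27% of all rows past either mark. For tRNA-Arg none was above and 1 below, beside 0.72% and 0.879% of all rows, as given by the authors' deposited table. NCL was the lowest of the list in both lines, at -0.678 for tRNA-Glu and -0.301 for tRNA-Arg. For tRNA-Glu, PUF60 had -0.501 and DIS3L, the highest of the list, had 0.289.

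RPPH1 and RMRP are the RNA subunits of RNase P, which trims the 5′ end of precursor tRNAs, and of RNase MRP, which cuts precursor ribosomal RNA. The enzymes share most of their proteins, but the scores of their RNAs parted for tRNA-Glu. RPPH1 had 0.237 for tRNA-Glu, at percentile 96.3, and 0.0497 for tRNA-Arg, at percentile 77.0 according to the authors' deposited table. RMRP was the lowest of the 9 for tRNA-Glu at -0.0362 (percentile 28.7), and had nearly the same value for tRNA-Arg at -0.0367 (percentile 27.2) as given by the authors' deposited table. Of the mRNAs of 10 RNase P and MRP proteins, none reached 0.25 in either line, beside 3.27% of all rows for tRNA-Glu and 0.72% for tRNA-Arg. At or below -0.25 were 2 of these mRNAs for tRNA-Glu and 1 for tRNA-Arg, beside 3.27% and 0.879% of all rows, according to the authors' deposited table. RPP25 was the lowest of them in both, at -0.620 for tRNA-Glu and -0.306 for tRNA-Arg as given by the authors' deposited table.

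Between the lines, 8 of the 9 members had the higher score for tRNA-Glu, beside 51.5% of all rows according to the authors' deposited table. The exception was RNY5, and RMRP differed by only 0.000501 between the lines as given by the authors' deposited table. The order of the lines changed with the scale of the columns. In units of the column SD, 6 members were higher for tRNA-Glu, and RN7SK, RNU6-1 and RNY5 were higher for tRNA-Arg. BCYRN1, RNY1 and RNY4 kept the widest gaps in those units too, at 2.31, 2.44 and 2.17 SD higher for tRNA-Glu.

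**Figure D2:**
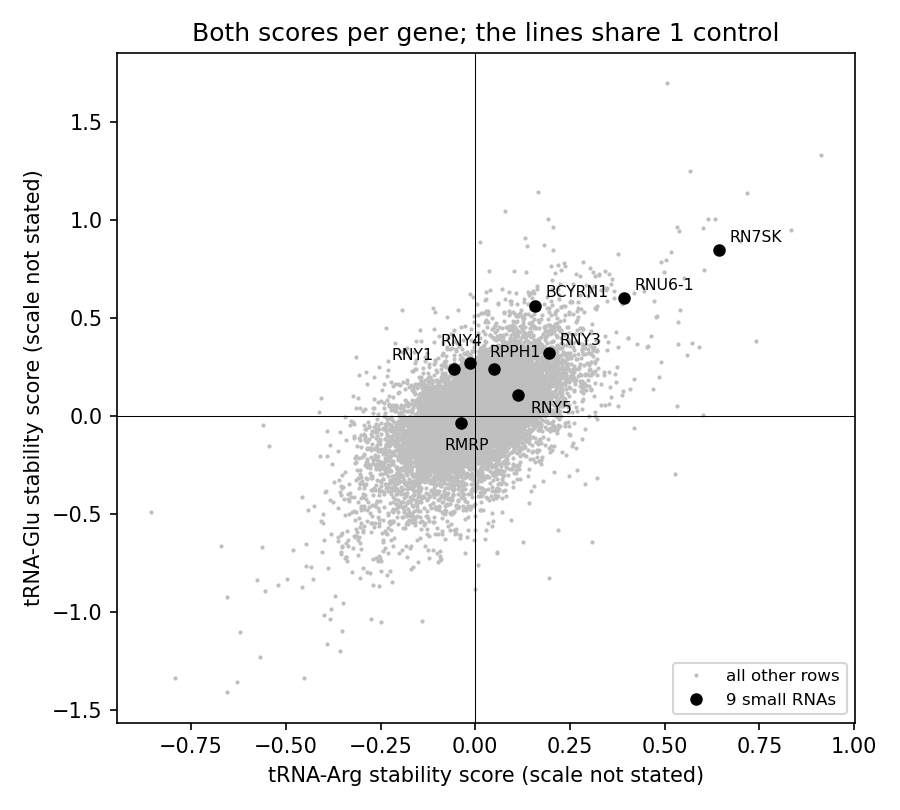
Stability score for tRNA-Glu (y axis) against that for tRNA-Arg (x axis), both against the same control and on a scale that is not stated, for all 34602 rows (grey) and the 9 small RNAs (black). RN7SK and RNU6-1 lie far out on both axes, and RMRP lies near the centre. RNY1 and RNY4 lie high on the tRNA-Glu axis at tRNA-Arg scores just below 0. BCYRN1 lies higher on the tRNA-Glu axis, at a tRNA-Arg score of 0.158.

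Other RNAs of polymerase III in the authors' deposited table had lower medians than the 9. Of 6 found, RN7SL1 and RNU6ATAC reached 0.25 for tRNA-Glu and none did for tRNA-Arg, beside 3.27% and 0.72% of all rows. Their medians were 0.0866 for tRNA-Glu and 0.0524 for tRNA-Arg according to the authors' deposited table. The vault RNAs VTRNA1-1 and VTRNA1-2, parts of a large cytoplasmic particle, had 0.0527 and 0.0325 for tRNA-Glu, and the 5S ribosomal RNA gene RN5S9 had 0.120 for tRNA-Glu and 0.223 for tRNA-Arg as given by the authors' deposited table. Spliceosomal RNAs made by polymerase II gave a mixed picture. Of 11, 3 were at or above 0.25 and 1 at or below -0.25 for tRNA-Glu, beside 3.27% of all rows past either mark, with a median of 0.0982 according to the authors' deposited table. For tRNA-Arg 2 of the 11 were at or above 0.25, beside 0.72% of all rows, and none at or below -0.25, beside 0.879%. Their tRNA-Arg median was -0.00449 according to the authors' deposited table. RNU1-5 had 0.509 for tRNA-Glu and 0.480 for tRNA-Arg, whereas RNU4-1 had -0.359 and -0.164 for the same lines as given by the authors' deposited table. RNU4-2, another gene of the same U4 RNA, had 0.283 for tRNA-Glu and -0.00449 for tRNA-Arg. The rows for U4 thus lay on opposite sides of 0 for tRNA-Glu. Small nucleolar and Cajal body RNAs, most of which are cut from introns of polymerase II transcripts, had medians close to the middle. Over 300 rows the median was 0.0142 for tRNA-Glu and 0.0114 for tRNA-Arg according to the authors' deposited table. At or above 0.25 were 9 of the 300 for tRNA-Glu and 2 for tRNA-Arg, beside 3.27% and 0.72% of all rows. None of the 300 was at or below -0.25 in either line, beside 3.27% of all rows for tRNA-Glu and 0.879% for tRNA-Arg. The highest for tRNA-Glu was SNORD3A at 0.492 according to the authors' deposited table. Of 15 snoRNA host and long non-coding RNAs, 3 in each line were at or above 0.25, beside 3.27% of all rows for tRNA-Glu and 0.72% for tRNA-Arg. For tRNA-Glu these were SNHG5 at 0.548, SNHG9 at 0.517 and SNHG6 at 0.316, and 1 RNA of the list was at or below -0.25, beside 3.27% of all rows. The medians were 0.0234 for tRNA-Glu and 0.0271 for tRNA-Arg, as given by the authors' deposited table. The rows that RefSeq names as the 28S and 18S ribosomal RNAs, products of polymerase I picked after their values were seen, had 0.654 and 0.350 for tRNA-Glu and 0.443 and 0.308 for tRNA-Arg as given by the authors' deposited table. The 28S row was thus above RNU6-1 and below RN7SK in both lines.

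**Figure D3:**
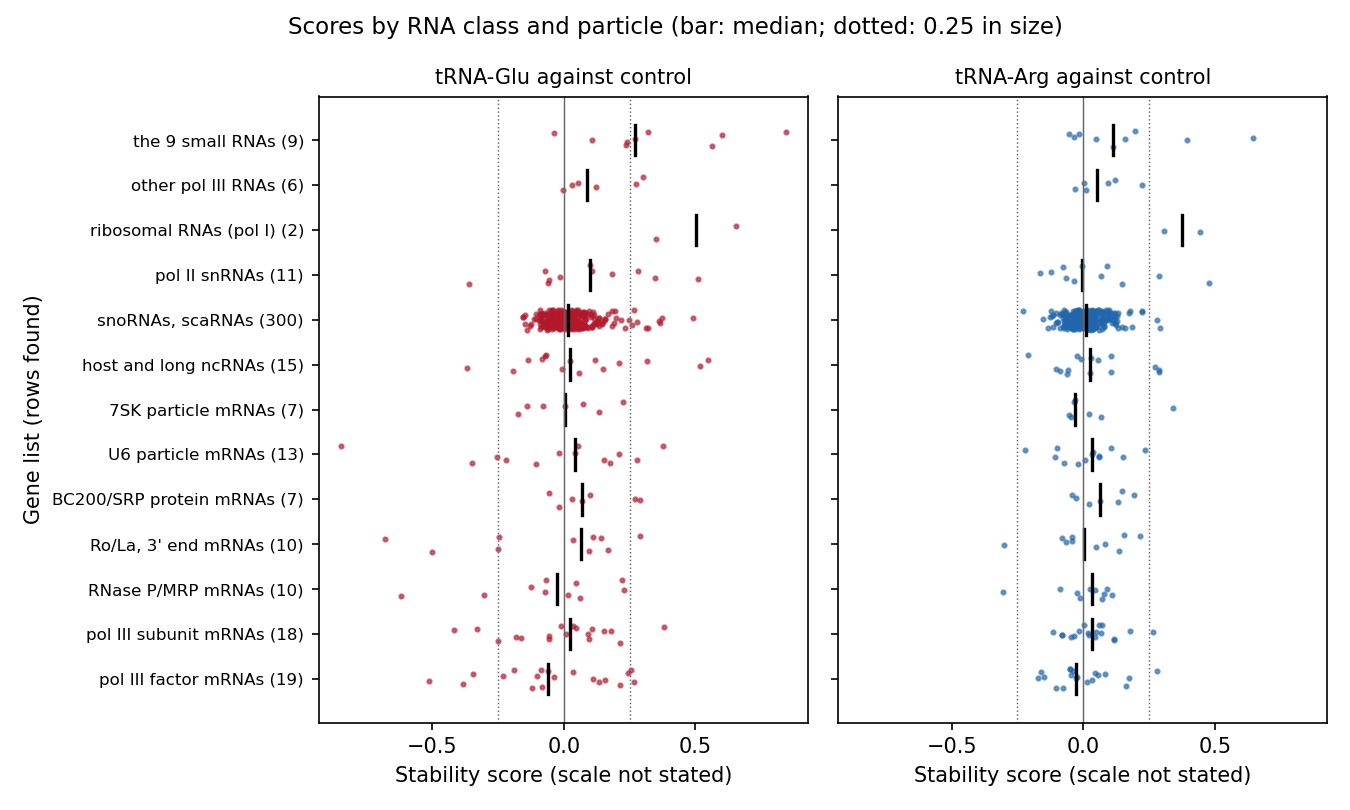
Stability scores (x axis, scale not stated) for tRNA-Glu (left) and tRNA-Arg (right) of each gene (dots) in lists of RNA classes, particle proteins and polymerase III machinery (y axis, number of rows found in brackets), with the median as a bar and dotted lines at 0.25 in size. The 9 small RNAs have a median of 0.269 for tRNA-Glu, the 6 other polymerase III RNAs 0.0866 and the 300 snoRNAs and scaRNAs 0.0142.

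The genes that make these RNAs had scores on both sides of 0. Beside the counts below, 3.27% of all rows were at or above 0.25 for tRNA-Glu and 0.72% for tRNA-Arg. At or below -0.25 were 3.27% of all rows for tRNA-Glu and 0.879% for tRNA-Arg, according to the authors' deposited table. Of the 18 polymerase III subunits, 1 was at or above 0.25 and 2 at or below -0.25 for tRNA-Glu, with a median of 0.0213 according to the authors' deposited table. POLR3K had the lowest score at -0.417 and POLR2H, a subunit shared by all nuclear polymerases, the highest at 0.380 for tRNA-Glu as given by the authors' deposited table. Of 19 initiation factors and regulators, 2 were at or above 0.25 and 3 at or below -0.25 for tRNA-Glu, with a median of -0.0605 according to the authors' deposited table. The lowest for tRNA-Glu were GTF3C5 at -0.514, MAF1, the repressor of polymerase III, at -0.383 and SNAPC2, of the complex that binds the promoters of U6 and 7SK, at -0.346, and the highest were GTF3C6 at 0.265 and SNAPC4, of the same complex as SNAPC2, at 0.254, as given by the authors' deposited table. For tRNA-Arg 1 gene of each list reached 0.25, POLR2H at 0.267 and GTF3C1 at 0.281, none was at or below -0.25, and the medians were 0.0331 for the subunits and -0.0285 for the factors, as given by the authors' deposited table. The 7 subunits listed for polymerase II had a median of -0.168 for tRNA-Glu and -0.0572 for tRNA-Arg, with none and 1 at or above 0.25 and 1 and none at or below -0.25 for the same lines, as given by the authors' deposited table. Subunits that polymerase II shares with polymerase III, POLR2H among them, were counted only in the polymerase III list. The medians of the lists therefore do not compare whole enzymes.

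For each member the nearest protein-coding gene on the GRCh38.p14 assembly that has a row of its own was read, which gave 7 genes. None of the 7 reached 0.25 in either line, beside 3.27% of all rows for tRNA-Glu and 0.72% for tRNA-Arg, according to the authors' deposited table. At or below -0.25 were 2 of the 7 for tRNA-Glu and 1 for tRNA-Arg, beside 3.27% and 0.879% of all rows, according to the authors' deposited table. With upper shares that small over all rows, a count of 0 among 7 at or above 0.25 does not set these genes apart. The counts at or below -0.25, which come from PDIA4 and EZH2, were larger shares than over all rows and were not tested. GSTA4, next to RN7SK, had 0.175 for tRNA-Glu and -0.0578 for tRNA-Arg, and PARP2, next to RPPH1, had -0.0155 and -0.0166 for the same lines as given by the authors' deposited table. PDIA4, nearest to RNY1, RNY3 and RNY4, had -0.332 for tRNA-Glu and -0.300 for tRNA-Arg according to the authors' deposited table. EZH2, nearest to RNY5, had -0.304 for tRNA-Glu and 0.0466 for tRNA-Arg according to the authors' deposited table.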

How the data were processed

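RNA of 12 MDA-MB-231 samples was measured on Illumina expression BeadChips. The authors' deposited table gives a stability score per gene symbol and tRNA line, and neither its calculation nor the joining of probes to genes is stated there. Per the file headers, 1 deposited table holds non-normalized intensity values. The authors also gave processed intensity values, and the submitters' processing notes name lumi without a version or step. Another 12 per-sample columns, of detection values, name no sample and were not used.

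No table paired probes with genes, so the planned limma fits of member probes, with their alternatives, were not run. Ranks, percentiles and counts at 0.25 were computed over all 34602 rows. The array contrast used log2 of the processed intensities, with the variance within groups of 2 summed over 4 groups, and was tested on simulated data. Whether the 2 replicates of a group came from separate cultures is not labelled, so spread between them may be technical, and their number limits the precision. The members, the lists and the size of 0.25 were chosen with earlier results of these data known. All members are named. In each of the 12 other lists the rule allowed the 3 highest and 3 lowest in either line, and all of a list of up to 8. RefSeq names came from the GRCh38.p14 assembly, and no sequence or coordinate of a member is given. Tools were Python 3.11.15, pandas 2.3.3, numpy 2.4.6 and matplotlib 3.10.9.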

Additional observations from a re-analysis of the deposited data

How the results depend on the processing

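The scores come without replicates, so leaving out an array could not be applied to them. No paired analysis was possible because the authors' deposited table holds 1 value per gene and line and no probe could be tied to a member. The alternatives planned for member probes were not run for the same reason. Centring each column on its median moved the members' median score to 0.264 for tRNA-Glu and 0.111 for tRNA-Arg. Division by the column SD gave medians of 2.00 SD for tRNA-Glu and 1.33 SD for tRNA-Arg. Without RNU6-1, an alternative added after seeing the data because of its near-identical copies, the medians were 0.254 for tRNA-Glu and 0.0812 for tRNA-Arg. The members' median stood at percentile 97.2 of all rows for tRNA-Glu and 92.9 for tRNA-Arg. Among the 19546 rows without placeholder names it stood at 96.9 and 92.0, and among the 326 rows of the small RNA lists at 95.1 and 90.8, for the same lines. With a size of 0.20 in place of 0.25, 7 members reached it for tRNA-Glu (5.13% of all rows) and 2 for tRNA-Arg (1.61%). With 0.30, 4 members (2.16% of all rows) and 2 members (0.390%) did. Centring left 5 and 2 members at or above 0.25, and changed the sign of no member's score. After centring, 7 of 9 members were higher for tRNA-Glu than for tRNA-Arg, and in column SDs 6 of 9.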
